A study of Anopheles gambiae with 8 samples.

Results

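The 4 control libraries of the study, EtOH replicates 1 to 4 of 8 libraries in all, were described here as the baseline of the *An. gambiae* cell line Sua 4.0. They were chosen by their treatment label alone. The other 4 libraries came from cells given 20-hydroxyecdysone (20E), and no 20E value is given below. The control cells received the solvent ethanol (EtOH) and no hormone, and RNA was collected 24 h later. The labels give the ethanol as 10%, whereas the paper's methods describe a matched volume of undiluted ethanol, so the exposure of the cells to solvent is uncertain. No untreated cells were analysed here, so these are levels in solvent-exposed cells. The 4 libraries were independent biological replicates of 1 cell line, made with a stranded mRNA kit.

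Sua 4.0 is an established *Anopheles* line that is often described as hemocyte-like. Hemocytes are the circulating immune cells of insects, which engulf microbes, release antimicrobial peptides and supply the prophenoloxidases that make melanin. 20E is the insect steroid hormone that binds the ecdysone receptor and its partner ultraspiracle. The bound receptor switches on a small set of early genes, which encode nuclear receptors and other transcription factors that act on later targets. In mosquitoes the hormone is made after a blood meal and drives the production of yolk protein.

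The deposited table gives gene identifiers without names. Names and descriptions were available only from the study's annotation. It covers the 128 genes listed as responding to 20E and the ribosomal protein gene *rpS7*, the reference for qRT-PCR. Of the 128 genes, 99 carry a name or a description, and searches by name could match only these and *rpS7*. The study chose the 128 genes by comparing these same libraries with the 20E libraries. Their baseline is therefore no fair sample of the genome, and a gene with no reads in either group could not have entered the list. The ecdysone receptor itself and most members of the immune families were not analysed here for want of a name. Of the hemocyte markers searched for, only *PPO3* and *PPO8* matched an annotated gene. A collagen IV gene was also on that list, by a symbol that the annotation lacks. An annotated collagen IV gene is described below with the matrix genes, and the cell type could not be checked further.

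The libraries held 7761718, 9866533, 13566683 and 12435877 counts in replicates 1, 2, 3 and 4. Levels are counts per 1000000 counts (CPM), scaled between the 4 libraries with edgeR's TMM factors. A single count was worth 0.0721 to 0.138 CPM, depending on the library. A gene was called on at 1 CPM or more in all 4 libraries, not detected at 0 counts in all 4, and off at a pooled level below 0.1 CPM. The remaining genes were called low or mixed. A total of 0 counts over the 4 libraries allows a level of up to 0.0685 CPM (3 counts over the group), which covers counting error only.

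Of 13763 genes, 7298 were on, or 53.0%. A further 2637 genes were low or mixed, 1215 were off and 2613 were not detected. Off and undetected genes together made up 27.8% of all genes, and undetected genes alone 19.0%. Each library had reads on 9943 to 10170 genes. Between the chromosomes, the X had the largest share of genes on, 60.7% of 1090, against 51.7% to 57.5% on the arms 2L, 2R, 3L and 3R. Genes not placed on a chromosome were on in 25.7% of 736 cases. Short genes were on least often. Among the 2756 genes with a listed span of at most 896 bases, 25.8% were on and 57.6% were off or undetected. In the other 4 groups of like size, ordered by span, 53.3% to 64.2% were on.

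**Figure D1:**
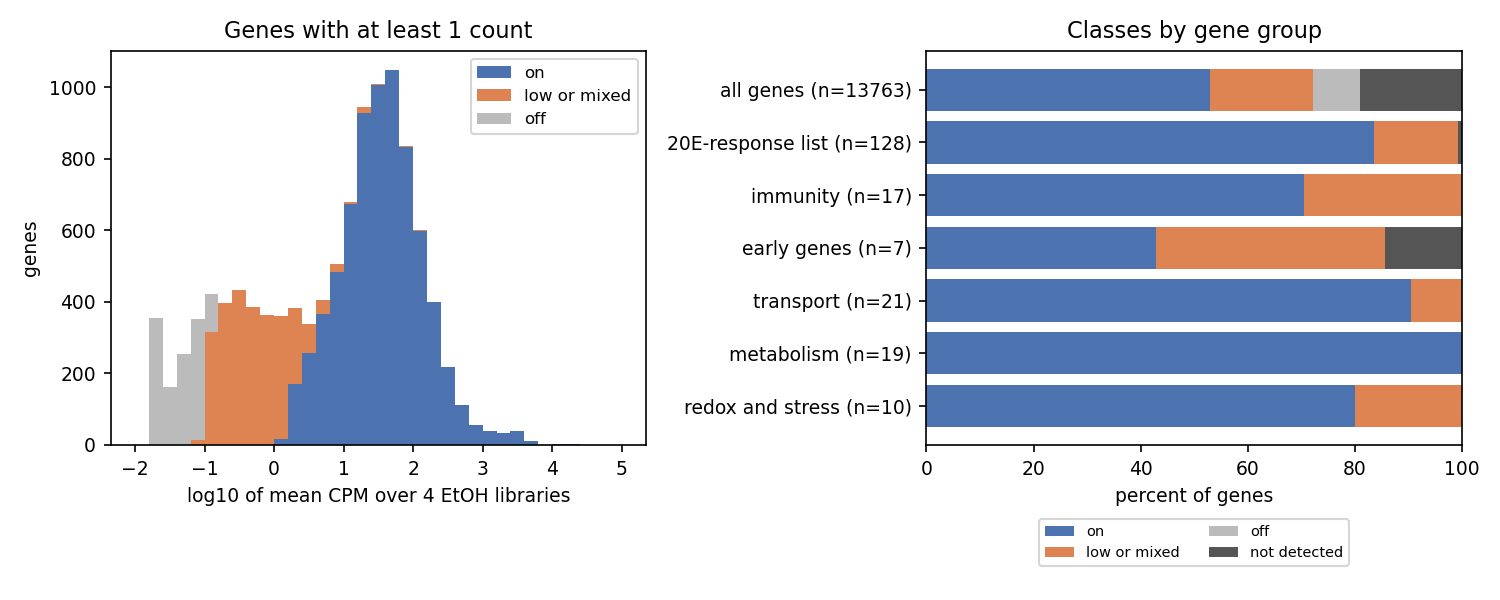
Left, number of genes by log10 of the mean CPM over the 4 EtOH libraries, stacked by class, for genes with at least 1 count. Right, percent of genes in each class for all genes and for groups of genes the study lists as responding to 20E. All 19 metabolism genes and 3 of 7 early genes were on, beside 53.0% of all genes. Both groups come from the 20E list, which was chosen with these same libraries, so nothing is read from their difference.

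A few genes drew a large part of the reads. The 37 genes of the mitochondrial genome took 21.2%, 15.8%, 10.97% and 16.0% of all counts in replicates 1, 2, 3 and 4. Most of this came from AGAP028391 (Mt from 12648 to 13972, minus strand), which alone took 17.7%, 11.8%, 8.27% and 13.2% of the counts. Replicate 1 was the highest for both, and replicate 3 the lowest. Neither the files nor the paper names this gene.

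Among nuclear genes, AGAP007548 (2L from 47479989 to 47494564) drew the most reads, with 18846, 18903, 26490 and 30045 CPM in replicates 1 to 4. AGAP002076 (2R from 14826967 to 14831432) followed with 15399, 13676, 9373 and 11749 CPM. The first was highest in replicates 3 and 4 and the second in replicates 1 and 2. The 20 nuclear genes with the most reads took 13.4%, 12.7%, 15.8% and 16.1% of the nuclear counts. None of the 20 is annotated in the sources used here. Ranking by CPM per kb of listed gene span, which includes introns, kept 9 of the 20.

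*rpS7* (AGAP010592) encodes a protein of the small ribosomal subunit. It had 1810, 1814, 3304 and 3129 CPM in replicates 1 to 4, a mean of 2513 ± 815 CPM (SD, n = 4). Replicates 1 and 2 were alike, and replicates 3 and 4 stood well above them. The ratio of its highest to its lowest library was 1.83, above the median ratio of 1.62 over the 6033 genes with a mean of at least 10 CPM. Only 129 genes of the genome, 6 of them mitochondrial, had a mean of 1000 CPM or more, and *rpS7* was the only annotated gene among them.

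The 128 genes of the 20E list lay mostly in the middle and upper part of the range. They had a median of 38.2 CPM, against 4.35 CPM over all genes. In this list 107 genes (83.6%) were on and 1 was not detected, where 53.0% of all genes were on. As stated above, a gene needed reads to enter the list, so nothing is read from this excess. In 10 of the 128 every library was below 1 CPM. These were the receptors *HR3*, *HR4* and *E75B*, the protease gene *CLIPC6*, allantoinase, follistatin, NADPH oxidase 4, the ubiquitin ligase gene AGAP012751 and the undescribed genes AGAP005386 and AGAP028168. Over all genes, 38.1% were below 1 CPM in every library.

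Of 7 early genes of the hormone response, 3 were on (42.9%, against 53.0% of all genes), 3 were low or mixed and 1 was not detected. The 7 are annotated entries, and those of *E75* and of the broad complex may be isoforms of the same gene. The median mean level of the 7 was 0.940 CPM. In 3 of them (42.9%) every library was below 1 CPM, close to the 38.1% over all genes. *HR4* (AGAP004693, 2L from 1527686 to 1533479) encodes an orphan nuclear receptor of the ecdysone cascade. It had 2, 3, 1 and 3 counts in replicates 1, 2, 3 and 4, which is 0.219 ± 0.0984 CPM (SD, n = 4). *HR3* (AGAP009002, 3R from 23116822 to 23136730), a related receptor that acts early in the cascade in *Drosophila*, had 1, 0, 2 and 2 counts. Both genes thus lay at or near the level of single reads in every library, and at this depth no difference between the libraries was detectable.

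*E75* encodes a heme-binding nuclear receptor and is annotated as a pair of neighbouring genes on 3L. *E75B* (AGAP012222, from 39067649 to 39074558) had 0 counts in all 4 libraries, which allows up to 0.0685 CPM. *E75A* (AGAP012223, from 39094062 to 39115899) was on, at 21.04, 7.85, 3.75 and 5.97 CPM in replicates 1 to 4. Replicate 1 was 5.61 times as high as replicate 3, and the mean of 9.65 CPM was 5.98 CPM without replicate 1. In control cells all counts of the pair thus lay on the entry for *E75A*. As the entries may be isoforms of the same gene, these counts do not show which transcript the cells made. Among the early genes that were on, *E75A* had the widest ratio, against 1.82 and 2.04 for the broad genes below.

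The broad complex encodes zinc finger transcription factors and is annotated as 3 entries on 2R. The paper refers to them as isoforms, so they need not be separate genes. AGAP002165 had 5.36, 8.12, 4.47 and 4.76 CPM, and AGAP002163 had 2.61, 3.97, 1.95 and 2.51 CPM. Both were on, and both were highest in replicate 2. AGAP002164 had 1.65, 0.451, 0.793 and 0.865 CPM, so it passed 1 CPM in replicate 1 alone. Per kb of listed span AGAP002163 had 0.833, AGAP002164 0.702 and AGAP002165 0.482 CPM per kb, an order unlike that of their CPM. The listed span includes introns, and the libraries of each entry varied by 1.82 to 3.66 times. The 3 entries are therefore not ranked on this scale. The mean of each was within 2 times that of the others on this scale.

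**Figure D2:**
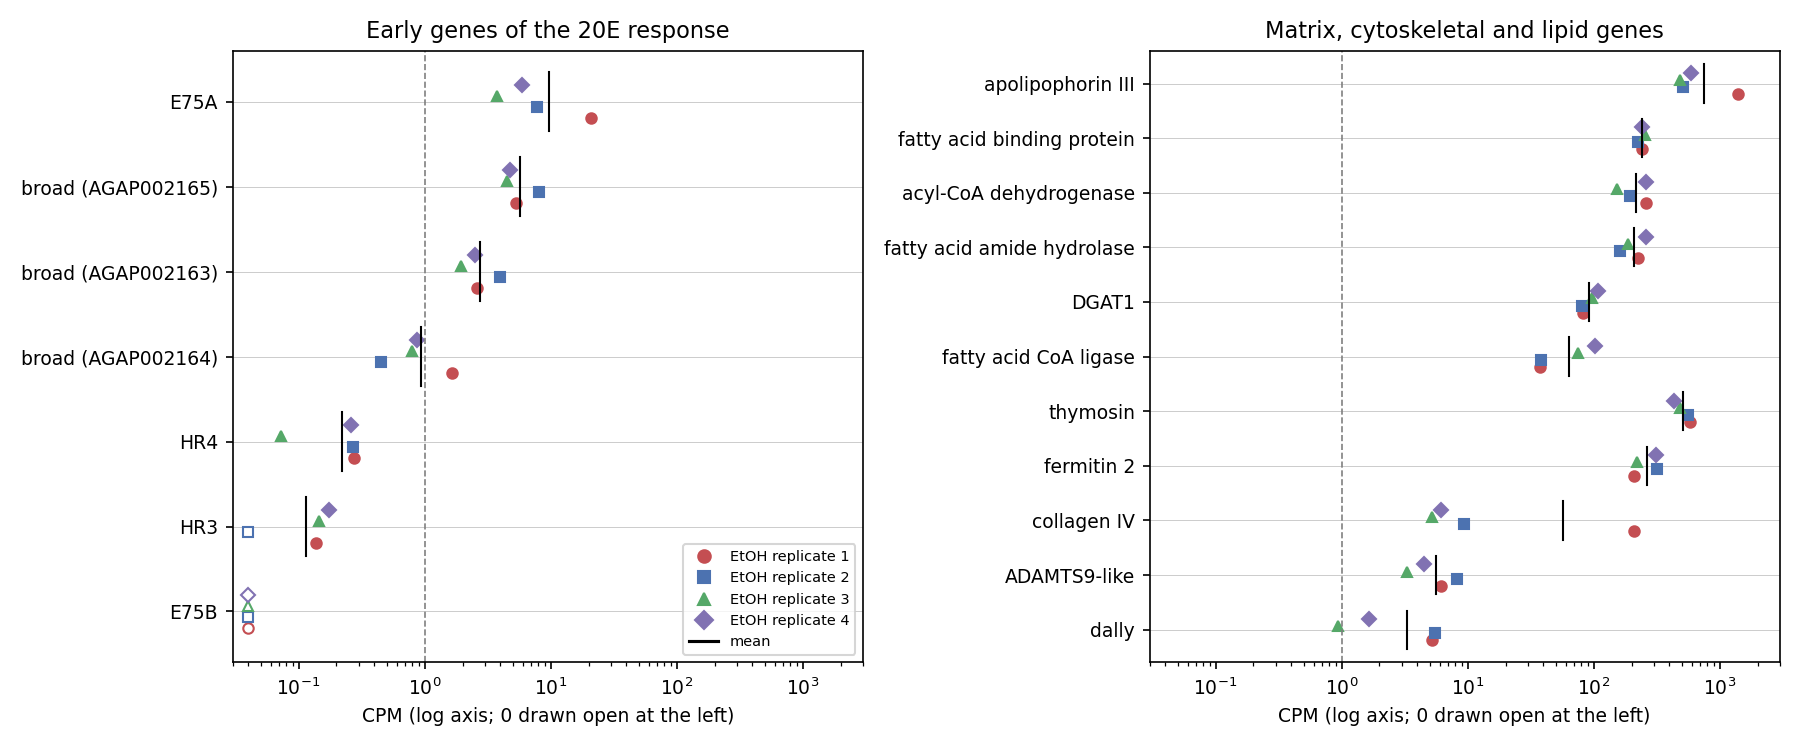
CPM (log axis) of each gene in EtOH replicates 1 to 4, with the mean as a black bar and a dashed line at 1 CPM. *HR4*, *HR3* and *E75B* stayed below 1 CPM in every library, and collagen IV stood at 209 CPM in replicate 1 against 5.26 to 9.29 CPM in the others.

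Of the 17 genes the study groups under immunity, 12 were on (70.6%), 5 were low or mixed and none was off, with a median of 14.7 CPM. The share on was 53.0% over all genes and 83.6% over the 128 listed genes they come from. By mean CPM the lowest of the 17 was *CLIPC6*, and the highest a gene for a leucine-rich repeat (LRR) protein. Levels between genes are compared here as CPM per kb of listed span. The span includes introns and ran from 600 to 16499 bases in these genes. The order below therefore holds on this scale only and need not be that of the transcripts. The highest on that scale were the LRR genes AGAP004017 at 364 and AGAP004016 at 168 CPM per kb. They were followed by the LRR gene AGAP013186 at 50.3, and then by *TEP2* at 30.9, *CEC1* at 30.0 and *PPO3* at 29.6 CPM per kb, which did not differ beyond the spread of their libraries. *CLIPC6* came last at 0.0800 CPM per kb, next to *TOLL7* at 0.0960. *CLIPC6* had 10 counts in total, so the order of this pair is not resolved at this depth.

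LRR proteins take part in recognition, and some of them stabilise complement-like factors in mosquito hemolymph. AGAP004017 had 711, 220, 379 and 588 CPM in replicates 1 to 4, and its neighbour AGAP004016 had 342, 215, 337 and 339 CPM. Both were lowest in replicate 2. The span of the second is shared with an antisense gene that drew 1497 counts in total. The strand setting of the counting is not given, so this level is less certain. The LRR transmembrane gene AGAP008593 had 1.65, 1.80, 2.31 and 5.88 CPM, which is 0.192 CPM per kb.

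*TEP2* (AGAP008366, 3R) belongs to the thioester-containing proteins, relatives of vertebrate complement. It had 147, 194, 158 and 132 CPM in replicates 1 to 4, a mean of 158 ± 26.4 CPM (SD, n = 4). It was the steadiest of the immunity genes, with a ratio of 1.47 between the highest and lowest library.

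Prophenoloxidases are the zymogens of the melanin pathway. *PPO3* (AGAP004975, 2L) was on, with 65.5, 83.0, 99.8 and 62.0 CPM in replicates 1 to 4, and so varied by 1.61 times. *PPO8* (AGAP004976), next to it, had 1.10, 0.992, 0.865 and 0.433 CPM. Per kb of span this was 29.6 CPM for *PPO3* and 0.357 CPM for *PPO8*, and the libraries of the pair did not overlap. Fragments that mapped to several places were left out by the counting, so a level in a gene family such as this could be understated.

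The cecropins are short peptides that break bacterial membranes, and *CEC1* and *CEC3* lie near each other on the X. *CEC1* (AGAP000693) had 21.5, 43.7, 3.10 and 3.81 CPM in replicates 1 to 4. *CEC3* (AGAP000694) had 3.16, 13.1, 0.793 and 1.04 CPM. In both genes replicate 2 was the highest, replicate 1 second, and replicates 3 and 4 low. The ratio of highest to lowest library was 14.1 for *CEC1* and 16.5 for *CEC3*, so their baseline differed between libraries by more than that of any other immunity gene with a count in every library. *CEC3* was classed as low or mixed because of replicate 3 alone. Without replicate 2 the mean was 9.08 CPM for *CEC1*, against 18.003 CPM over all 4 libraries, and 1.60 CPM for *CEC3*, against 4.52 CPM.

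*LYSC1* (AGAP007347, 2L), a C-type lysozyme that cleaves bacterial peptidoglycan, had 17.3, 24.2, 5.77 and 11.3 CPM. It too was highest in replicate 2 and lowest in replicate 3, a ratio of 4.19.

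CLIP-domain serine proteases relay immune signals through cascades in the hemolymph. *CLIPB15* (AGAP009844) had 16.5, 45.2, 55.7 and 20.9 CPM in replicates 1 to 4. *CLIPB20* (AGAP012037) had 19.9, 8.30, 2.67 and 2.86 CPM. The mean of *CLIPB20* was 8.44 CPM, and 4.70 CPM without replicate 1. The orders differed, since *CLIPB15* was lowest in replicate 1 where *CLIPB20* was highest. *SP14D1* (AGAP009849) was on at 1.15 to 3.79 CPM, whereas *CLIPC6* (AGAP000315) had 3, 0, 5 and 2 counts.

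*TOLL7* (AGAP012326, 3L) encodes a Toll-like receptor and was close to silent, with 0.688, 0.361, 0.288 and 1.13 CPM in replicates 1 to 4. *MDL1* (AGAP012352, 3L), a secreted lipid-binding protein of the MD-2 family, had 3.30, 1.35, 0.793 and 1.3 CPM. *TOLL7* passed 1 CPM in replicate 4 alone, and *MDL1* missed it in replicate 3 alone. In these bulk samples, fewer cells that express a gene and less RNA of it per cell cannot be told apart.

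**Figure D3:**
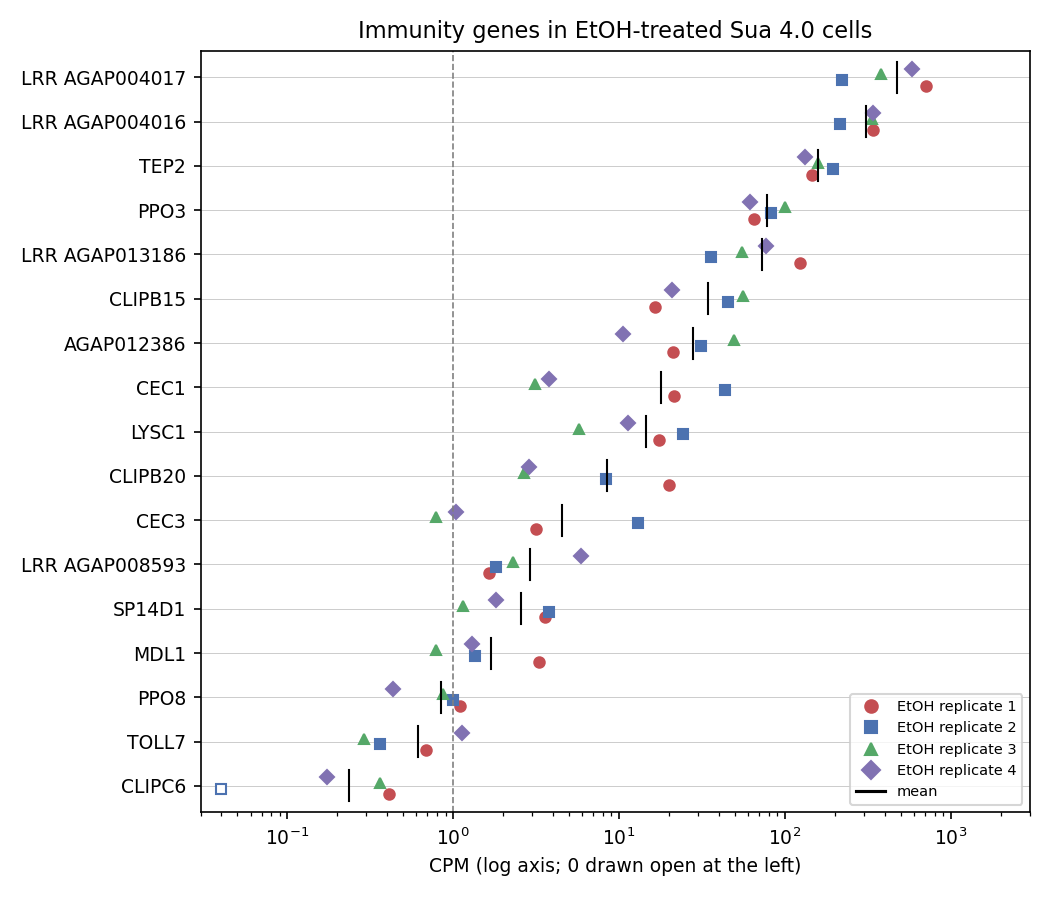
CPM (log axis) of the 17 immunity genes in EtOH replicates 1 to 4, ordered by mean (black bar), with a dashed line at 1 CPM. *TEP2* and *PPO3* held together across libraries, while *CEC1* ran from 3.10 to 43.7 CPM and *CEC3* from 0.793 to 13.1 CPM.

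Of the 3 matrix genes in the annotation 2 were on (66.7%), where 53.0% of all genes and 83.6% of the listed genes were. Collagen IV (AGAP009200, 3R from 28613496 to 28620808), the main network-forming protein of basement membranes, had 209, 9.29, 5.26 and 6.14 CPM in replicates 1 to 4. Replicate 1 was 39.7 times as high as replicate 3, the widest ratio of any annotated gene with a count in every library. The mean of 57.4 ± 101 CPM (SD, n = 4) therefore describes no single library, and it was 7.05 CPM without replicate 1. The gene for an ADAMTS protease (AGAP004201), which cuts matrix proteins, was on at 6.19, 8.30, 3.32 and 4.5 CPM. *dally* (AGAP005799), a cell surface proteoglycan that binds secreted signals in *Drosophila*, had 5.23, 5.50, 0.937 and 1.64 CPM and missed 1 CPM in replicate 3 alone.

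Other annotated genes act in cell adhesion and the cytoskeleton. Fermitin 2 (AGAP002054), an activator of integrins, had 208, 320, 219 and 311 CPM in replicates 1 to 4. Thymosin (AGAP000235), which binds actin, had 578, 566, 484 and 434 CPM. These genes had ratios of 1.54 and 1.33 between highest and lowest library. Coronin (AGAP007525), another actin-binding protein, had 43.0 ± 11.8 CPM (SD, n = 4) and a ratio of 2.01, above the median of 1.62 over genes with a mean of at least 10 CPM. The undescribed gene AGAP001582, which the study places in its cytoskeleton group with thymosin and collagen IV, had 63.3, 60.1, 120 and 179 CPM, a ratio of 2.99.

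All 6 genes matched by the list of lipid carriers and lipid enzymes were on, beside 53.0% of all genes and 83.6% of the 128 listed genes they come from. Apolipophorin III (AGAP013365, 2R from 33372135 to 33373038) is an exchangeable lipid carrier of insect hemolymph. It had 1406, 510, 484 and 595 CPM in replicates 1 to 4 and was the highest of the 128 listed genes both in CPM and, at 828, in CPM per kb. It is also the only annotated gene of the markers taken for fat body. Replicate 1 stood apart from the other libraries, which lay within 484 to 595 CPM. The fatty acid binding protein gene AGAP013400 had 243, 223, 258 and 243 CPM, and its ratio of 1.15 was the smallest of all annotated genes. Fatty acid amide hydrolase (AGAP011315) had 225, 163, 187 and 261 CPM. Long-chain fatty acid CoA ligase (AGAP008596), which activates fatty acids, had 37.7, 38.1, 75.1 and 103 CPM, so replicates 3 and 4 were the high ones. An antisense gene with 196 counts in total shares part of the ligase span. DGAT1 (AGAP007843), which makes triglyceride, and an acyl-CoA dehydrogenase (AGAP028164) averaged 92.6 ± 13.6 and 217 ± 53.2 CPM (SD, n = 4 each).

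All 19 metabolism genes were on, beside 53.0% of all genes and 83.6% of the listed genes, with a median of 119 CPM. Smaller groups of the study's list, such as its 4 cytoskeleton and 4 proteolysis genes, were also on throughout. Choline/ethanolamine kinase (AGAP007957), the entry step to phosphatidylcholine, averaged 598 ± 213 CPM (SD, n = 4) and was highest in replicate 4. The next 3 enzymes, which act in branched-chain amino acid breakdown, were picked after their values were seen. Methylmalonate-semialdehyde dehydrogenase (AGAP002499) averaged 495 ± 159 CPM, 3-hydroxyisobutyrate dehydrogenase (AGAP005581) 182 ± 104 CPM and the 2-oxoisovalerate dehydrogenase E2 subunit (AGAP000549) 55.8 ± 16.2 CPM (SD, n = 4 each). The second of these had 95.8 and 89.5 CPM in replicates 1 and 2 and 257 and 287 CPM in replicates 3 and 4. Fumarylacetoacetase (AGAP005865), the last step of tyrosine breakdown, had 427, 162, 338 and 523 CPM.

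Among 10 genes of redox and stress 8 were on (80.0%), close to the 83.6% of the listed genes and beside 53.0% of all genes. *GSTMS1* (AGAP000165), a microsomal glutathione transferase, had 310, 135, 176 and 226 CPM in replicates 1 to 4. The cytochrome P450 genes were all on, from *CYP9L1* (AGAP012295) at 12.1 CPM per kb to *CYP9J4* (AGAP012292) at 76.3 CPM per kb. In CPM these averaged 20.3 ± 11.1 and 192 ± 99.7 (SD, n = 4 each). A pair of genes that both carry the name *CYP9M1*, AGAP009363 and AGAP009374, averaged 71.2 and 55.02 CPM. Both were higher in replicates 3 and 4 than in replicates 1 and 2, and like other close relatives they may share reads that were left out of the counts. NADPH oxidase 4 (AGAP003772) had 7, 0, 1 and 1 counts.

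Of 21 transport genes 19 were on (90.5%), where 83.6% of the listed genes and 53.0% of all genes were. Organic cation transporter 3 (AGAP010509) and the neighbouring proton-coupled amino acid transporter (AGAP010508) had 39.5 and 2.60 CPM per kb, from means of 154 ± 55.8 and 4.32 ± 2.51 CPM (SD, n = 4 each). A gene annotated as a putative D7 protein (AGAP006278), the only annotated gene of the markers taken for salivary gland, was on at 216, 289, 155 and 232 CPM. The bicarbonate transporter family gene AGAP009736 had 4.68, 99.8, 8.51 and 31.3 CPM, and the nucleobase transporter gene AGAP003176 had 42.9, 31.2, 4.47 and 57.7 CPM. The first stood highest in replicate 2 and the second lowest in replicate 3. The mean of AGAP009736 was 36.1 CPM, and 14.3 CPM without replicate 2. SEC14 phosphatidylinositol transfer protein (AGAP005385) had 0 counts in replicate 1 and 3.88, 2.09 and 12.6 CPM in replicates 2, 3 and 4.

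Replicate 1 was the library set furthest apart by the correlations and the leading component below. It was not at the extreme much more often than replicate 2. Among the 6033 genes with a mean of at least 10 CPM, replicate 1 was highest in 1708 and lowest in 1828. Replicate 2 was highest in 1630 and lowest in 1835. The biological coefficient of variation from edgeR over 7360 genes was 0.349, and 0.301 without replicate 1. Pearson's r of log2 CPM over these genes was 0.967 between replicates 3 and 4, and 0.904 to 0.927 between replicate 1 and the others. These are correlations across genes, which are not independent replicates. The leading principal component held 54.5% of the variance and set replicate 1 apart, and the next, with 30.4%, set replicate 2 apart from replicates 3 and 4. Replicate 1 also had the lowest depth and the highest mitochondrial share. With all libraries thinned to the depth of replicate 1 the coefficient was 0.339. This is a value over all 4 libraries and does not measure how far replicate 1 lay from the others. The parts of depth and of the mitochondrial share in setting replicate 1 apart were not tested.

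Of 6033 genes with a mean of at least 10 CPM, 396 (6.56%) differed by more than 4-fold between their highest and lowest library. Without replicate 1 there were 139, and without replicate 2, 3 or 4 there were 303, 320 and 374. A range over fewer libraries tends to be smaller, so some fall was built into each of these counts. A range of more than 2-fold was found in 1665 of the 6033 genes. Replicate 1 was more than 4-fold below each of the other libraries in 83 genes and more than 4-fold above each of them in 42. For the other replicates these counts ran from 1 to 14. Of 87 listed genes with a mean of at least 10 CPM, 12 were among the 396. AGAP028028 (3R) had 548, 4.06, 0.577 and 4.07 CPM in replicates 1 to 4. AGAP001863 (2R) had 0 counts in replicates 1 and 2, against 81.9 and 63.9 CPM in replicates 3 and 4. At the other extreme AGAP012014 (3L) had 709, 712, 695 and 705 CPM, the smallest coefficient of variation of nuclear genes with a mean of at least 100 CPM. None of these 3 genes is named in the sources used here.

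Genes with a wide range lay beside each other more often than other genes did. Among placed nuclear genes with a mean of at least 10 CPM, 123 of 385 wide genes (32.0%) had another wide gene as the next such gene on either side. Among the others this held for 609 of 5551 (10.97%). No test was run on this difference, because neighbouring genes are not independent.

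**Figure D4:**
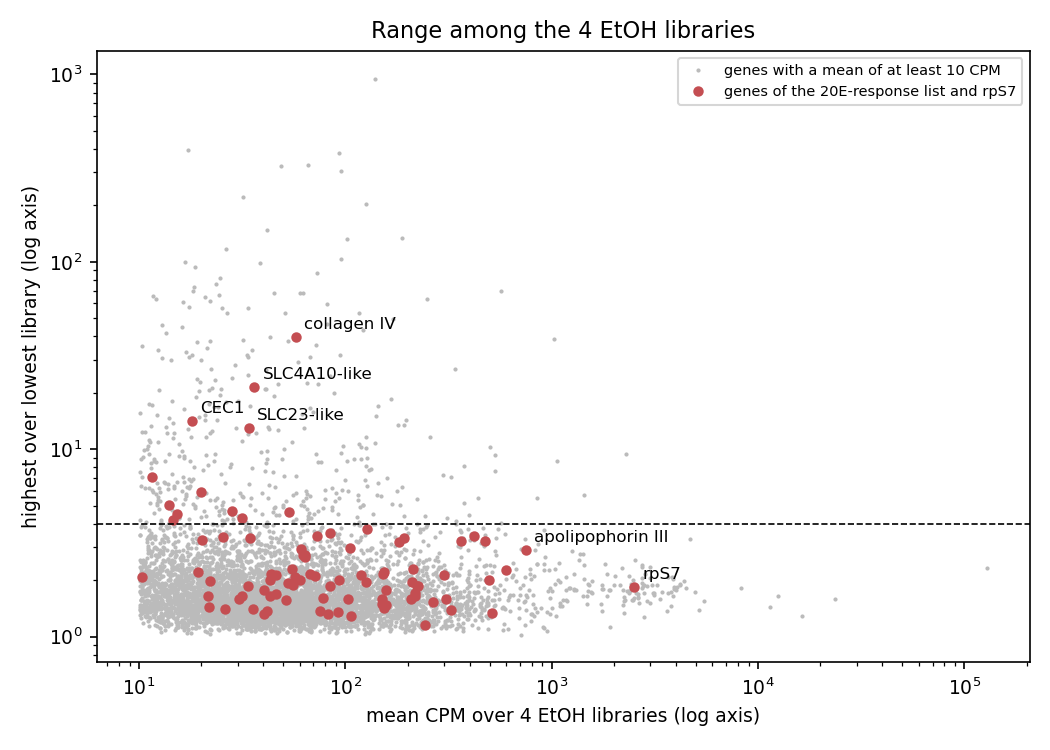
Ratio of the highest to the lowest EtOH library against mean CPM (both log axes) for genes with a mean of at least 10 CPM, with annotated genes in red and a dashed line at 4-fold. Collagen IV lay at 39.7 and *rpS7* at 1.83, and 3 genes with 0 counts in a library are not drawn.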

How the data were processed

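Paired reads from 8 cultures were mapped by the authors with STAR 2.5.2b to the AgamP4 genome and counted per gene with featureCounts, without multimapped or chimeric reads or fragments lacking an end. They deposited raw counts of fragments for 13763 genes. The strand setting is not given in the sources used here. The listed length equals the whole gene span in 100% of genes. Columns were matched to samples by title, and only the 4 EtOH columns were analysed, the others entering 1 alternative scaling. CPM used TMM factors from edgeR 4.0.16 in R 4.3.3, computed on 7360 genes kept by filterByExpr (minimum count 10). No 20E versus EtOH test was made. The coefficient of variation came from edgeR's common dispersion with an intercept alone, checked on simulated counts. Pairs of libraries differed by at least 65.3 in chi-square per degree of freedom, so none was a copy.

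Genes named were the 20 nuclear genes with most counts, all annotated early genes, the highest and the silent members of each list, the study's qRT-PCR genes, and the genes with the widest and smallest spread. Few of the unannotated ones are printed. Other genes of the study's list, among them those of metabolism, transport, redox and the cytoskeleton, were chosen after their values were seen. Of 29 gene lists searched for by symbol or description, 16 matched at least 1 annotated gene. Identifiers did not match the RefSeq table. Members and lists were chosen with earlier results of these data known. Alternatives were plain totals, RLE factors, TMM over all 8 libraries, nuclear totals, thinning, other thresholds, DESeq2 1.42.0 dispersions and leaving out each library.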

Additional observations from a re-analysis of the deposited data

Results flagged for a closer look

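In 10 of 128 annotated genes with reads (7.81%), and in AGAP028028, the highest or lowest of the 4 EtOH libraries lay far from the other 3. These passed Dixon's criterion for the gap over the whole range. The criterion flags about 1 in 20 groups by chance if values are normally distributed. It was applied to CPM without logs, so no excess over that rate is read from these shares. AGAP028028 had been picked for its wide range, so its place here adds nothing. Among the 6033 genes with a mean of at least 10 CPM, 448 (7.43%) passed the criterion. The library set apart was replicate 1 on the high side in 166 of them.

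Replicate 1 was the high library for collagen IV (AGAP009200) at 209 CPM, for apolipophorin III (AGAP013365) at 1406 CPM, for AGAP028028 at 548 CPM and for NADPH oxidase 4 (AGAP003772) at 0.963 CPM. The last rests on 7 counts. It was the low library for the DYRK-type kinase gene AGAP007847, at 27.9 CPM. Replicate 2 was low for the LRR gene AGAP004016 at 215 CPM and for AGAP000274 at 30.6 CPM. Replicate 3 was low for *HR4* (AGAP004693) at 0.0721 CPM, which is 1 count against 2, 3 and 3 counts, a difference not detectable at this depth. Replicate 4 was high for AGAP002593, annotated as outer membrane lipoprotein Blc, at 33.2 CPM. The same library was high for the LRR transmembrane gene AGAP008593 at 5.88 CPM and for the amino acid transporter gene AGAP010508 at 8.05 CPM.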

How the results depend on the processing

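No paired analysis was possible because no test compares the groups here. The number of genes on ran from 7288 to 7388 under the other scalings and thinning, and from 7336 to 7436 with each replicate left out. With a replicate left out, fewer libraries had to pass. The number on was 7751 at a threshold of 0.5 CPM, 6853 at 2 CPM and 8025 by a mean of at least 1 CPM. The immunity genes on ran from 10 to 14 over all settings, the early genes from 2 to 3 and the matrix genes from 2 to 3. Genes with a pooled level below 0.1 CPM numbered 3828, 2613 with 0 counts required and 5203 below 0.5 CPM. The share of nuclear counts in the 20 leading genes was 14.5 ± 1.70% (SD, n = 4), and 12.2% of all counts, 10.3% when ranked per kb, and 14.0% to 15.1% with a replicate left out. The mitochondrial share of 16.0% ran from 14.2% to 17.7%. The coefficient of variation of 0.349 was 0.427 with no filter on low counts, 0.220 as DESeq2's median gene-wise estimate, 0.295 in replicates 2 to 4 thinned to equal depth (a setting chosen after the data had been seen), and 0.301 to 0.380 with a replicate left out. The 396 genes with over 4-fold range became 1070 at a mean of at least 1 CPM and 1665 at 2-fold, and 139 to 374 with a replicate left out. Scaling to nuclear counts alone raised all annotated genes with reads alike, by 1.19 times, which was more than 1 SD for 14 of 129. Leaving out a library moved the mean of 17 annotated genes by more than 1.5 times, 8 of them without replicate 1, 7 without replicate 2, none without replicate 3 and 2 without replicate 4. Genes below about 1 CPM rest on few reads, so differences among them are not resolved at this depth.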
